A study of Mus musculus with 10 samples.

Results

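The regions described here are the stretches of the mouse genome with estrogen receptor α (ERα) peaks in the anteroventral periventricular nucleus (AVPV) and with no peak in the arcuate nucleus. They were chosen from the peak calls themselves. Overlapping peaks (1 bp or more) of the 8 libraries were joined, which gave 8072 regions. Those called in 2 or more of the 4 AVPV libraries and in 0 of the 4 arcuate libraries were kept. This rule gave 419 regions, 5.19% of all merged regions, called AVPV-only below. The share is what the rule found and is not a test of it. Since calls, fold enrichment and rank all entered the choice, they are described without a test.

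ERα chromatin immunoprecipitation followed by sequencing was performed on both hypothalamic nuclei of adult female C57BL/6 mice, with 4 ERα libraries of each nucleus. All animals were ovariectomised and carried a 2 cm Silastic implant of 17β-estradiol in sesame oil (0.1 mg/mL), and tissue was taken 28 h after estradiol benzoate (0.05 mg/kg) had been injected. The chromatin was pooled from dissected tissue that holds many cell types, it is not stated whether each library had a pool of its own, and no vehicle library was analysed here. Spread between libraries may therefore be technical. The 4 AVPV lists held 2367 to 3347 peaks and the 4 arcuate lists 3251 to 4079, and the read depth behind them was not used. The lists hold no read coverage and no expression, so the absence of a peak does not mean the absence of binding, and the dissection was not checked against marker genes.

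ERα is a nuclear receptor that is activated by estradiol and binds DNA as a dimer at the estrogen response element (ERE), a palindrome of paired AGGTCA half-sites. It also reaches DNA through other factors, and much of its binding lies away from promoters, in enhancers within introns and between genes. The AVPV is a preoptic nucleus rich in ERα, known for the kisspeptin and dopamine neurons through which estradiol exerts positive feedback on the gonadotropin surge. The arcuate nucleus holds the kisspeptin neurons of negative feedback.

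The sequences of a few AVPV-only regions are shown first. All are from the forward strand of mm10 (GRCm38), read from the RefSeq assembly, with 50 bases on each side of the summit unless said otherwise. Capitals mark the best match to the ERE palindrome, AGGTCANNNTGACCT, with up to 2 mismatches among its 12 fixed bases. The first 4 are the AVPV-only regions with a palindrome without mismatch. They lie at chr10:94486903-94487003 in intron 2 of Tmcc3, which encodes a membrane protein of the endoplasmic reticulum, at chr8:29789963-29790063 between genes with the netrin receptor gene Unc5d nearest, at chr8:79182600-79182700 in intron 11 of Zfp827, which encodes a zinc finger protein, and at chr11:70283769-70283869 between genes near the lipoxygenase gene Alox12. The last window is centred on the element, 54 bp from the summit. Unc5d had fold enrichments of 4.45, 5.20 and 4.82 in AVPV libraries 1, 2 and 4. Zfp827 had 4.45 and 4.69 in libraries 1 and 3, and Alox12 had 4.07 and 5.68 in libraries 3 and 4. Each of these values was below the median of its list. The Zfp827 and Alox12 summits lay in repeat-masked sequence.
Tmcc3: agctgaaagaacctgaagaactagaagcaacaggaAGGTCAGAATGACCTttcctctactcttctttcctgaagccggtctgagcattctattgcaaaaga
Unc5d: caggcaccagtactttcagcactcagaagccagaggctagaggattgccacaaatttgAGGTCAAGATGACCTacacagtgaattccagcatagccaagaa
Zfp827: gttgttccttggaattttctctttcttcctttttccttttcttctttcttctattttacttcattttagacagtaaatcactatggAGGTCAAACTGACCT
Alox12: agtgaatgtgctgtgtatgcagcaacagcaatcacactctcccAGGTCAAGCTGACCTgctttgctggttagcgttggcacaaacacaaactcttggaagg

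The next 5 are regions with peaks in all 4 AVPV libraries that ranked high in each list and held an imperfect element. Substitutions are given as the palindrome's base, its position counted from 1 at the 5′ end of the 15 letters on the strand shown, and the base found. The region at chr17:60223582-60223682 (nearest start site Nudt12) had C5T and G11A. The one at chr1:163833195-163833295 in intron 10 of Kifap3 had A1G and G2T. The intergenic region at chr4:26452237-26452337 (nearest start site Manea) had C5T alone. The region at chr10:102455917-102456017, nearest to Nts, had T4A and C5T, and the region at chr9:47569797-47569897 in intron 1 of Cadm1 had A1G and C14A.
Nudt12: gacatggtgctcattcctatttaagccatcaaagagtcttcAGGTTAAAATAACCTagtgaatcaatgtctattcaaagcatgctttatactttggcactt
Kifap3: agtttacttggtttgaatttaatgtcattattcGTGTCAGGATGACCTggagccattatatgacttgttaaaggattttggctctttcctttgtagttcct
Manea: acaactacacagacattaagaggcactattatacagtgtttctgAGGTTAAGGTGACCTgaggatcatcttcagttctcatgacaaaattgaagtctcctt
Nts: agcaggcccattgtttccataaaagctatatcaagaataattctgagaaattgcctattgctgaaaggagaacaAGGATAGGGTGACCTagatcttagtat
Cadm1: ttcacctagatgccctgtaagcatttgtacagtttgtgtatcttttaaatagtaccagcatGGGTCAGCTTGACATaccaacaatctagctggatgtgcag

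The last 4 show regions in which no such element was found. A distal pair ranked among the strongest, at chr8:67590044-67590144 (intergenic, nearest start site Nat3) and at chr15:81082332-81082432 in the first or second intron of Mrtfa, depending on the transcript. The others are the strongest in promoters, at chr2:69885636-69885736 (Mettl5) and chr15:53902583-53902683 (Samd12).
Nat3: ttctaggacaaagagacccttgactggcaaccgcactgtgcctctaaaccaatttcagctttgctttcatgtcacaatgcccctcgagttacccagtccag
Mrtfa: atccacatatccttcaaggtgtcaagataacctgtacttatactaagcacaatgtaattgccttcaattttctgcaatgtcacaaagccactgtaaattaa
Mettl5: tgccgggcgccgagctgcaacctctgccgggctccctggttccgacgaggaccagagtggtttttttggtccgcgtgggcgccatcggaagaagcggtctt
Samd12: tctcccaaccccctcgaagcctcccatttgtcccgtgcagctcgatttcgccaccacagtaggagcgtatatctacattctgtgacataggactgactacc

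Most AVPV-only regions were called in few libraries. Of the 419, 251 (59.9%) had a peak in 2 AVPV libraries, 102 (24.3%) in 3 and 66 (15.8%) in all 4. The regions with peaks in 4 of 4 AVPV and 0 of 4 arcuate libraries made up 0.818% of all merged regions. AVPV library 4 held 327 of the 419 (78.0%), library 3 held 280 (66.8%), library 2 held 237 (56.6%) and library 1 held 228 (54.4%). Their shares of each list were closer together, from 8.37% in library 3 to 10.7% in library 4. Among the regions called in 2 libraries, 82 had the pair 3 and 4 and 20 had the pair 1 and 2. Of the regions called in 3 libraries, 11 lacked a peak in library 4, against 27 to 33 for each of the other libraries.

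AVPV-only regions were mostly weak peaks. Fold enrichment is the height of a peak over its local background, as the authors' caller gave it, and its percentile ranks a peak within its own list. The median percentile of the AVPV-only regions was 35.0, 32.4, 36.2 and 39.0 in AVPV libraries 1 to 4, and the median fold enrichment was 5.49, 5.36, 5.32 and 5.68. In the same libraries the 2140 regions called in at least 2 libraries of each nucleus, termed shared below, had median percentiles of 60.6, 61.2, 69.9 and 65.6. The strongest 25% of each list held 6, 9, 11 and 17 AVPV-only regions, and the weakest 25% held 81, 83, 80 and 104. The rank was higher with more libraries: the median of the regions' median percentiles was 30.3 for 2 libraries, 36.4 for 3 and 51.2 for 4. Only 32 of the 419 were above percentile 50 in every list that held them.

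**Figure D1:**
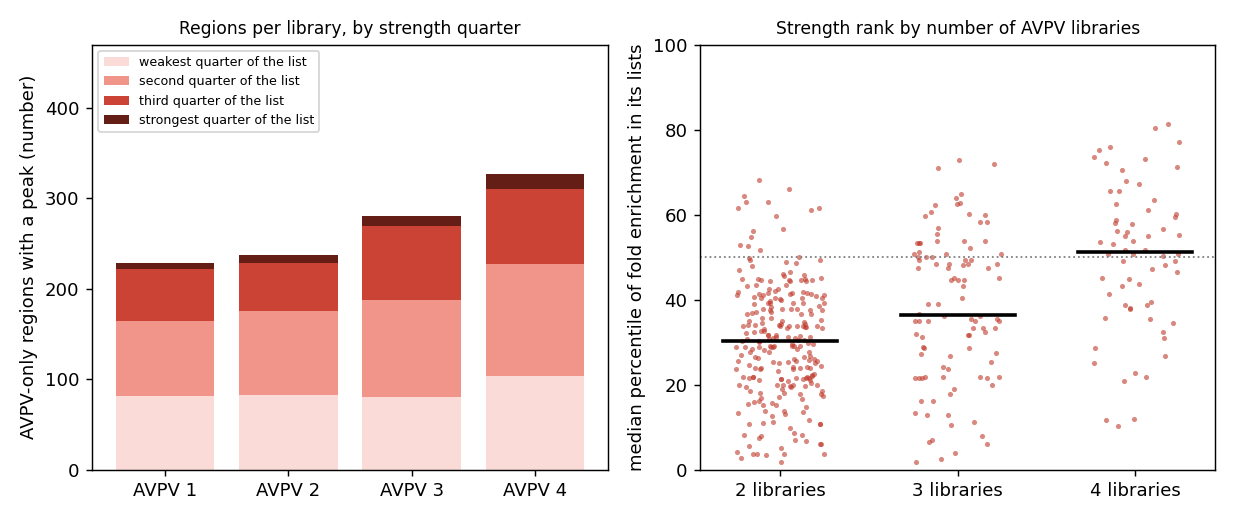
Left, number of AVPV-only regions with a peak in each AVPV library (bars), divided by the 25% of that library's list into which the fold enrichment fell; the strongest 25% held 6 to 17 regions per library. Right, median percentile of fold enrichment of each region over the lists that held it (points) by number of AVPV libraries, with the median as a black line (30.3, 36.4 and 51.2) and the middle of the lists dotted.

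The 251 regions with 2 AVPV and 0 arcuate peaks had a median percentile of 30.3 and a median fold enrichment of 5.22. The 147 regions with 2 AVPV peaks and 1 arcuate peak had 32.0 and 5.24. The 1072 regions with 1 AVPV peak and no arcuate peak had 21.7 and 4.72. In all, 310 regions with at least 2 AVPV peaks were kept out by a peak in a single arcuate library, with a median percentile of 38.2 and a median fold enrichment of 5.64. That library was library 1 in 157 of them and library 2, 3 or 4 in 66, 42 and 45. The lowest percentile of any member was 1.11, in library 4, and it was shared by the regions nearest to Ptma, Shtn1, Sec24d, Gm20389 and Immt. Among the 147 regions with 2 AVPV peaks and 1 arcuate peak, the strongest by lowest percentile was in intron 1 of Gfod1 (chr13:43206311-43206642). It had fold enrichments of 8.17 and 7.26 in AVPV libraries 2 and 3 and 7.95 in arcuate library 2.

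The regions were short, with a median width of 314 bp and a range from 190 to 709 bp. The width grew with the number of peaks merged, from a median of 280 bp for 2 libraries to 334 bp for 3 and 427 bp for 4. Within a region the summits of the libraries lay close together, with a median spread of 61.0 bp and a largest spread of 437 bp. All but 10 regions (2.39%) were over 1 kb from any arcuate peak, and the median distance to one was 105 kb.

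The 10 regions within 1 kb of an arcuate peak included the Tmcc3 region with the palindrome without mismatch. It (chr10:94486757-94487156) had fold enrichments of 5.78, 6.82 and 7.66 in AVPV libraries 2, 3 and 4 and no peak in library 1. A separate peak of arcuate library 2, with a fold enrichment of 3.78, lay 191 bp from it. Of the other 9, those nearest to Nfkbil1, Cdc16, Vps25, Stard4 and Gm20389 lay 67 to 198 bp from a region that had peaks in all 4 AVPV libraries and in 2 to 4 arcuate libraries. Next to the Cdc16 promoter region, for example, the neighbouring region had fold enrichments of 15.9 to 22.1 in the AVPV and 15.4 to 18.2 in the arcuate nucleus.

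The strongest AVPV-only regions lay in introns and between genes. By the rule for named regions, those with peaks in all 4 libraries were ordered by their lowest percentile. The region nearest to Nudt12, an NADH pyrophosphatase gene, had fold enrichments of 9.41, 8.09, 7.82 and 11.6 in AVPV libraries 1 to 4, and it lay 1210 kb from that start site (chr17:60223492-60223921). The region 66.2 kb from the arylamine N-acetyltransferase gene Nat3 had 8.34, 10.2, 10.2 and 13.6 (chr8:67589920-67590266). Both exceeded the median of their list in every library, since the list medians were 5.96 to 6.28.

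The second Tmcc3 region (chr10:94496608-94497219), also in intron 2, had fold enrichments of 8.11, 9.83, 7.51 and 9.08 in AVPV libraries 1 to 4. With the first it formed the tightest pair, 10463 bp from end to end. The region in intron 1 of Gm11351, a predicted gene, reached the highest fold enrichment of any AVPV-only region, 18.4 in library 4 (percentile 95.1), against 8.89, 7.80 and 9.39 in libraries 1 to 3. Library 4 thus stood well above the other libraries there, while the lowest value was still at percentile 67.3 of its list.

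In the gene of the kinesin-associated protein Kifap3 the region had fold enrichments of 7.84, 6.94, 7.20 and 9.08 (chr1:163832957-163833414). In Mrtfa, which encodes a coactivator of serum response factor, they were 7.72, 9.10, 6.58 and 13.8 (chr15:81082219-81082565). Library 4 was highest in both. The region 106 kb from the mannosidase gene Manea had 7.06, 8.67, 6.88 and 9.36, and the region in intron 3 of Nkain3, a Na,K-ATPase-interacting protein gene, had 8.63, 6.65, 7.20 and 8.23.

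The region nearest to Nts was the only AVPV-only region nearest to a gene of the AVPV peptide and transmitter list. This list has 25 genes, and 1.51% of all genes were nearest to an AVPV-only region. Of the same 25 genes, 1 was nearest to an arcuate-only region and 2 to a shared one. A count of 1 was thus not particular to AVPV-only regions. Nts encodes neurotensin, a neuropeptide made in the preoptic area. The region (chr10:102455694-102456152) lay 34.5 kb downstream of the start site and had fold enrichments of 8.63, 6.65, 9.39 and 9.93 in AVPV libraries 1 to 4, all above the list medians. No other merged region had Nts as its nearest gene, and the closest arcuate peak was 257 kb away.

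**Figure D2:**
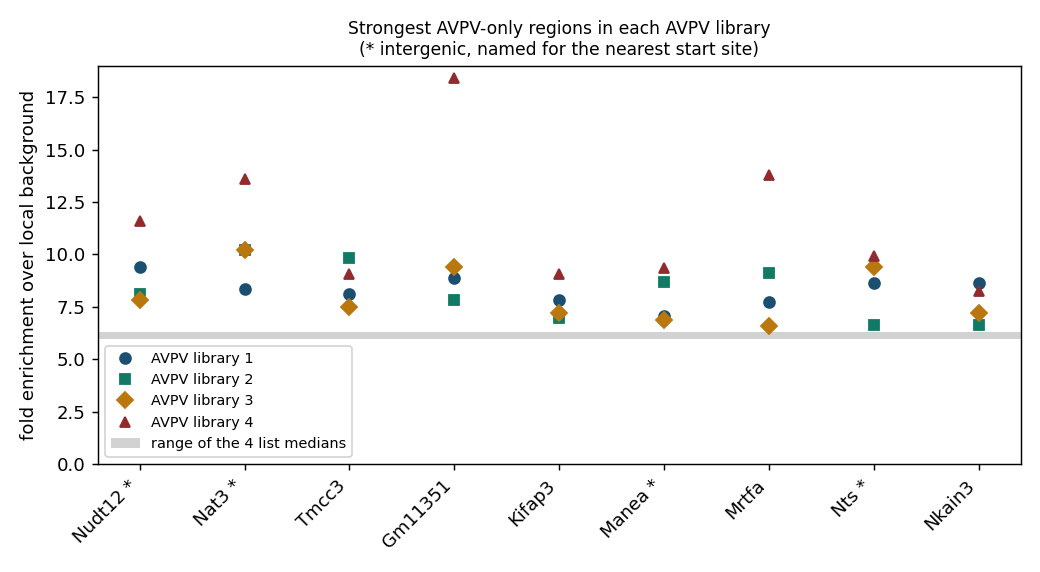
Fold enrichment over local background (linear axis from 0) of 9 of the strongest AVPV-only regions, named by host gene or, with a star, by the nearest start site, in AVPV libraries 1 to 4 (symbols). The grey band spans the medians of the 4 AVPV lists (5.96 to 6.28); every symbol lies above it, and library 4 reaches 18.4 in Gm11351.

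AVPV-only regions lay mainly outside promoters. Of the 419, 68 were in a promoter (reaching 1 kb upstream and 100 bp downstream of RefSeq start sites), which is 16.2% (95% Wilson interval 13.0 to 20.1). Introns held 148 (35.3%, 30.9 to 40.0) and 188 were intergenic (44.9%, 40.2 to 49.7), while 6 lay in untranslated regions, 5 in coding exons, 4 in noncoding exons and 0 at transcript ends, which allows up to 0.908%. Intervals cover counting error only, since neighbouring regions and libraries are not independent. By the mirrored rule, 1090 regions were arcuate-only, and their shares were 11.3% in promoters, 42.6% in introns and 40.0% intergenic. Shared regions were in promoters in 37.8%.

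Within each AVPV library, AVPV-only regions were less often in promoters than shared ones. The difference was -24.1, -25.4, -20.0 and -25.1 percentage points in libraries 1 to 4, a mean of -23.7 ± 2.54 (SD, n = 4). It had the same sign in all 4 libraries and exceeded the spread between them. No p-value is given, because these libraries share most of their regions. The promoter share also differed by strength: in the weakest 25% of the AVPV lists 20.2% ± 4.11 of AVPV-only regions were in promoters against 39.8% ± 2.21 of shared regions, and in the next 25% it was 12.7% ± 3.50 against 32.1% ± 1.70 (SD, n = 4 libraries). Between percentiles 50 and 75 it was 12.3% ± 5.64 against 31.7% ± 1.45. In the strongest 25%, where each library held 6 to 17 AVPV-only regions, it was 6.44% ± 8.05 against 46.4% ± 5.36, the highest share of the shared regions. By number of libraries, 53 of the 251 regions called in 2 libraries were in promoters (21.1%), against 9 of 102 (8.82%) and 6 of 66 (9.09%) for 3 and 4. Library 3 had the highest promoter share of the AVPV-only regions, 20.0% against 11.0% to 14.9% in the others.

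**Figure D3:**
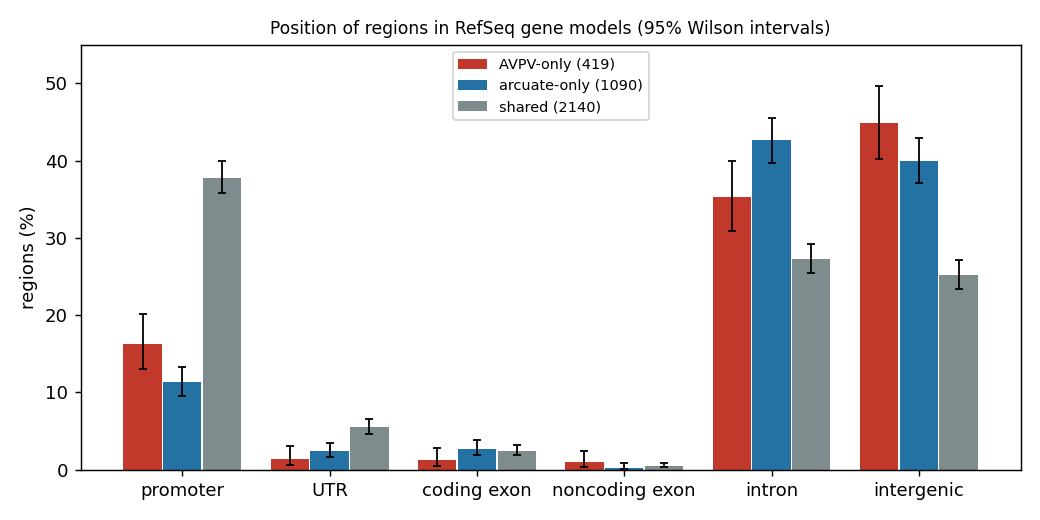
Share of AVPV-only, arcuate-only and shared regions by the position of their midpoint in RefSeq gene models, with bars from 0 and 95% Wilson intervals. AVPV-only regions were in promoters in 16.2%, against 11.3% of arcuate-only and 37.8% of shared regions, and 44.9% of them were intergenic.

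The start site nearest to the midpoint was over 200 kb away for 72 AVPV-only regions (17.2%), against 8.99% of arcuate-only and 7.34% of shared regions. Within 20 kb of a start site were 39.4%, 41.7% and 64.6%. The median distance was 39.9 kb over all AVPV-only regions and 86.0 kb over the intergenic ones, where it was 57.3 kb for arcuate-only and 62.1 kb for shared regions. These are descriptions of the sets, with no test.

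The ERE was common outside promoters and rare within them. A palindrome with up to 2 mismatches lay within 100 bp of the summit in 142 AVPV-only regions (33.9%, 95% Wilson interval 29.5 to 38.6), against 28.7% of all merged regions. In windows moved by 5 kb it was found in 7 of the 419 (1.67%). Of the 142 elements, 4 had 0 mismatches, 47 had 1 and 91 had 2. In promoters 1 of 68 regions held an element (1.47%), in introns 56 of 148 (37.8%) and between genes 82 of 188 (43.6%). Among regions outside promoters the share was 40.2% (35.2 to 45.4) for AVPV-only, 45.2% (42.1 to 48.3) for arcuate-only and 53.3% (50.6 to 55.9) for shared regions.

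Elements clustered at the summit, less tightly than at shared regions. The median distance of the element from the summit was 25.5 bp in AVPV-only, 22.0 bp in arcuate-only and 14.0 bp in shared regions. The summit was the median over the libraries of the nucleus concerned, but over the libraries of both nuclei for shared regions. Shared peaks also ranked higher, and the part of these differences in the distances was not tested. Outside promoters, 30 of the 60 regions called in all 4 AVPV libraries held an element (95% Wilson interval 37.7% to 62.3%), against 30 of 93 (32.3%, 23.6 to 42.3) for 3 libraries and 81 of 198 (40.9%, 34.3 to 47.9) for 2, so the share did not follow the number of libraries in order. Among the 18 regions above percentile 50 in all 4 lists, 8 held an element, 12 were intronic, 4 intergenic and 1 in a promoter.

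**Figure D4:**
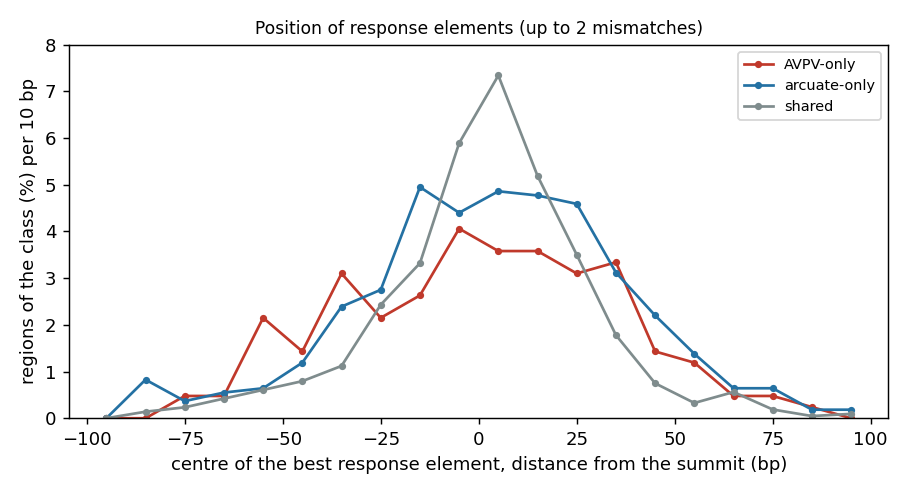
Position of the centre of the best palindrome relative to the summit (bp), in bins of 10 bp, as a percentage of all regions of each class. The curve of AVPV-only regions is lower and broader around the summit than that of shared regions, with median distances of 25.5 and 14.0 bp.

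The mismatches were not spread evenly over the half-site. Over the 142 AVPV-only elements there were 229 mismatches, counted from position 1 at the outer A to position 6 at the inner A of each AGGTCA. Positions 1, 2 and 4 took 26.2%, 26.2% and 24.9% of them, and position 6 took 3.49%. In arcuate-only regions position 2 took 16.8% and position 6 10.6% of 716 mismatches, and in shared regions 18.8% and 10.1% of 1015. Position 3 took 7.42%, 6.28% and 6.11% in AVPV-only, arcuate-only and shared regions.

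The GC content was lower than that of arcuate-only regions, but the difference did not pass the test after adjustment. The median GC content of the 201 bases around the summit was 43.8%, 43.8%, 45.8% and 43.8% in AVPV libraries 1 to 4 and 49.3%, 50.2%, 50.7% and 53.2% for arcuate-only regions in the arcuate libraries. Every AVPV library was below every arcuate library. The means were 44.3% ± 0.995 and 50.9% ± 1.69 (SD, n = 4 each), a difference of -6.59 points (exact two-sided permutation test, p = 0.0286, the smallest that 4 against 4 allow). Adjusted by Benjamini-Hochberg over the 4 properties tested, p was 0.114 in this exact permutation test and did not pass 0.05. Libraries of a nucleus share regions, so their values are not independent and the p-values are too small. Outside promoters the mean was 42.9% ± 0.626 in the AVPV libraries (SD, n = 4) and the difference was -7.09 points. The medians of all peaks were 49.8% to 56.2% in the AVPV lists and 50.7% to 59.7% in the arcuate lists. Those of regions outside promoters found in a single library were 43.8% to 54.7% and 46.8% to 63.7%, so the nuclei overlapped there. The part of library composition in the difference was not tested.

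The other 3 properties did not pass the test either. An ERE was present in 33.3%, 33.3%, 29.6% and 35.2% of AVPV-only regions in AVPV libraries 1 to 4 and in 43.2%, 43.4%, 41.8% and 32.9% of arcuate-only regions in arcuate libraries 1 to 4. The difference in means was -7.47 points (exact two-sided permutation test, p = 0.114, adjusted 0.229), with arcuate library 4 inside the AVPV range. The promoter share was 14.8% ± 3.85 against 11.5% ± 4.94 (SD, n = 4 each; exact two-sided permutation test, p = 0.343, adjusted 0.457). Summits in repeat-masked sequence made up 8.25% ± 1.24 and 8.54% ± 0.718 (SD, n = 4 each; exact two-sided permutation test, p = 0.686, adjusted 0.686).

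The single half-site AGGTCA was rarer and the half-site AGAACA more frequent than in arcuate-only regions. Of 22 motifs counted on both strands of the 201-base windows, these stood out outside promoters, and they were singled out after their values were seen. AGGTCA, which also forms part of the full palindrome, was found outside promoters in 35.1%, 36.9%, 35.7% and 39.2% of AVPV-only regions in AVPV libraries 1 to 4. In the arcuate libraries 59.9%, 58.7%, 59.0% and 51.1% of arcuate-only regions held it. AGAACA, the half-site bound by progesterone, androgen and glucocorticoid receptors, was in 32.5%, 28.2%, 28.1% and 29.2% against 22.3%, 21.0%, 19.1% and 17.8%. Neither pair of ranges overlapped, but libraries of a nucleus share regions, so their values are not independent.

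Around the summits common to a region, AGGTCA was in 39.0% of AVPV-only regions outside promoters, 57.6% of arcuate-only and 48.6% of shared ones. In AVPV-only windows moved by 5 kb it was in 14.0%. Over all positions AGGTCA was in 32.9%, 52.4% and 34.0%, and in 33.9% of merged regions, so AVPV-only regions were close to shared ones there. AGAACA was in 29.1% of AVPV-only regions outside promoters, 20.7% of arcuate-only and 21.6% of shared ones, and in 18.8% of AVPV-only windows moved by 5 kb. By number of AVPV libraries (2, 3 and 4) it was in 28.8%, 30.1% and 28.3%. Over all positions it was in 26.0% of AVPV-only, 19.4% of arcuate-only, 15.2% of shared and 16.3% of all merged regions. Its full palindrome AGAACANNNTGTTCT, with up to 2 mismatches, was in 18 AVPV-only regions (4.30%, 95% Wilson interval 2.73 to 6.69), 3.39% of arcuate-only and 2.99% of shared regions over all positions. Outside promoters these shares were 4.84%, 3.83% and 4.66%, so AVPV-only and shared regions were close. Outside promoters, 169 of 351 AVPV-only regions (48.1%) had neither the ERE nor AGGTCA, against 32.6% of arcuate-only and 38.4% of shared regions.

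**Figure D5:**
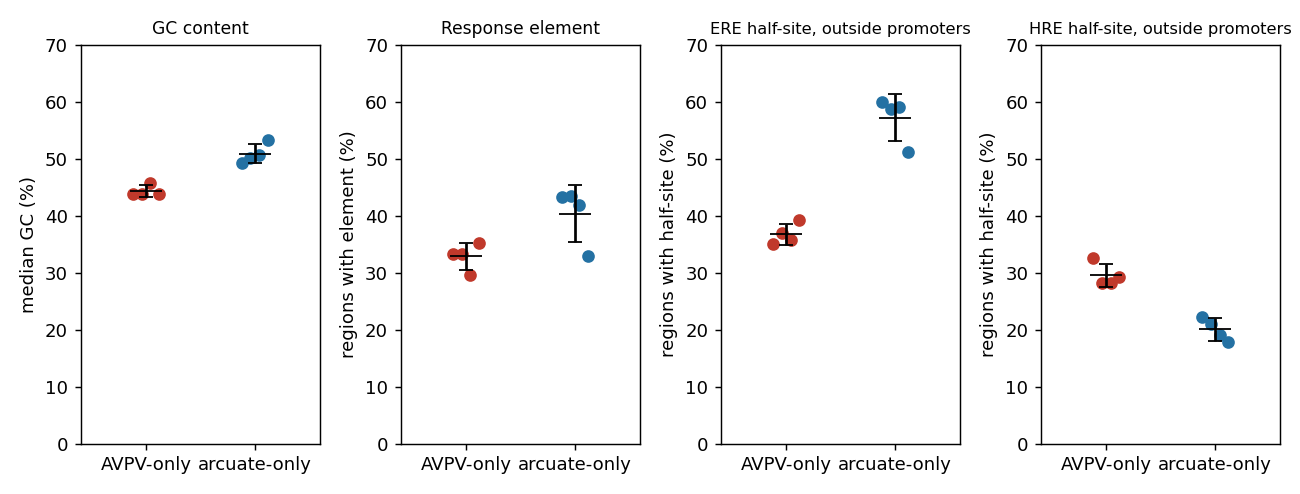
One value per library (points, libraries 1 to 4 from left to right within each set) for AVPV-only regions in AVPV libraries and arcuate-only regions in arcuate libraries, with mean and SD (black), on axes from 0 to 70%. From left, median GC content, share with an ERE, and shares with the half-sites AGGTCA and AGAACA outside promoters. Only in the ERE share do the nuclei overlap. Libraries of a nucleus share regions, so their points are not independent.

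Some motifs rich in A and T were counted more often in AVPV-only than in shared regions, with no test. TAATTA, the core of many homeodomain sites, was in 6.44% of AVPV-only, 3.58% of arcuate-only and 2.48% of shared regions, 3.34% of all regions and 5.25% of windows moved by 5 kb. AGATAA, the GATA site, was in 11.5%, 7.25%, 7.76% and 7.48%, and in 11.0% of moved windows. The SOX site ACAATGG was in 5.73%, 3.30%, 2.71% and 2.95%, and in 2.63% of moved windows. The AP-1 site TGANTCA was in 6.44%, 7.52%, 6.50% and 6.34%, and in 6.21% of moved windows. The MEF2 site TATTTATA was in 1 AVPV-only region (0.239%, against 0.654% of shared regions). The forkhead site TGTTTAC was in 6 (1.43%, against 2.38%). These counts are too small to read a difference from. In promoters, GGGCGG was in 44.1% and CCGGAAG, the ETS site, in 26.5% of AVPV-only regions, against 41.9% and 39.1% of shared regions.

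The regions were spread over all autosomes. Chromosome 2 held 40 and chromosome 1 held 31. Per 100 Mb the count ran from 7.90 on chromosome 5 to 24.4 on chromosome 19 among autosomes. The X chromosome held 7, or 4.09 per 100 Mb, and Y held 0, and on X these were 5.79% of its merged regions, near the 5.19% over all chromosomes. Only 8 pairs lay within 50 kb of each other, and no group was larger. The pair near Sprr2a2 and Sprr2a3, near-identical copies in a multigene cluster of skin barrier proteins, was weak, with fold enrichments of 3.37 to 4.11, and its reads could be split between copies.

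AVPV-only regions had 395 nearest genes, 1.51% of the 26180 RefSeq genes. Of these, 373 were nearest to 1 region, 20 to 2 and 2 to 3 regions. Of the 395, 41 (10.4%) were also nearest to an arcuate-only region and 86 (21.8%) to a shared one, and 281 (71.1%) were nearest to neither. Of all RefSeq genes, 3.70% were nearest to an arcuate-only and 7.51% to a shared region. Both overlaps were thus above the shares over all genes, and the 71.1% does not mark these genes as particular to the AVPV. The nearest gene is the gene of the closest start site and is not shown to be regulated from the region.

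The genes with 3 regions were 4930524C18Rik, whose regions had fold enrichments of 3.71 to 5.63, and Cntnap2, which encodes a neurexin-family protein of axons. In Cntnap2 the 3 regions lay in introns (chr6:45062288-45062576, chr6:46585120-46585395 and chr6:47266663-47266942), each with peaks in 2 libraries. Fold enrichments were 6.28 and 3.97 in libraries 1 and 4 for the first, 5.95 and 6.24 in libraries 3 and 4 for the second, and 6.01 and 4.69 in libraries 1 and 3 for the third. The gene spans 2241 kb. Host genes of intronic regions were long in general, with a median span of 189 kb over 139 genes, against 112 kb for hosts of arcuate-only regions and 13.5 kb for all RefSeq genes. Of the 148 intronic regions, 53 (35.8%) were in a first intron.

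Among gene lists, that of cell adhesion molecules and synapse organisers, proteins that join the sides of synapses and guide their formation, held the most. Of its 80 genes, 10 (12.5%) were nearest to an AVPV-only region, against 1.51% of all genes. The list was also frequent at arcuate-only regions (16.2% of the list, against 3.70% of all genes) and at shared regions (17.5%, against 7.51%). Its genes are long, with a median span of 224 kb, and the part of gene length in these shares was not tested. The 10 were Cadm1, Slitrk1, Nrxn3, Cntnap2, Lrrc4c, Slitrk6, Nectin1, Cdh4, Cdh6 and Pcdh15.

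Cadm1 encodes a synaptic adhesion protein of the immunoglobulin family, and its intron 1 region (chr9:47569699-47570067) had fold enrichments of 9.41, 6.65, 6.51 and 6.81 in AVPV libraries 1 to 4. A region 1795 bp away had peaks in 3 AVPV and 2 arcuate libraries. The region 217 kb from Slitrk1, a neuronal transmembrane protein gene, had 4.97, 5.20, 7.20 and 7.95, with libraries 3 and 4 above libraries 1 and 2. Nrxn3, a presynaptic neurexin gene, held 2 intronic regions. The one called in 4 libraries (chr12:89431971-89432327) had 5.49, 4.34, 5.63 and 7.38, and only library 4 exceeded its list's median of 6.24. The other (chr12:88876706-88876964) had 6.80, 6.88 and 9.08 in libraries 1, 3 and 4, each above its list's median, and no peak in library 2. Slitrk6 had 2 regions, the nearer 704 kb away, and one of them reached 9.36 in library 4 with no peak in library 3.

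The potassium channel list had 4 of 75 genes (5.33%, against 1.51% of all genes), among them Kcnh1, Kcnq3 and Kcna4, and the list of other channels had Trpm3 and Cacnb2 of 61 (3.28%). In Trpm3, a calcium-permeable cation channel gene, the region had 6.97, 6.82 and 6.27 in libraries 1, 3 and 4, and no peak in library 2. The region nearest to Gria3, a glutamate receptor subunit gene, lay 479 kb from its start site and had 3.92, 5.32 and 4.26 in libraries 1, 3 and 4. The monoamine, acetylcholine and histamine receptor list had 4 of 54 genes (7.41%), namely Htr1a, Chrm4, Hrh1 and Hrh4, each with a region in 2 libraries. Its shares were 3.70% at arcuate-only and 5.56% at shared regions. The region 33.0 kb from Htr1a, the serotonin 1A receptor gene, had 4.71 and 5.39 in libraries 1 and 4, and the region 37.0 kb from the histamine H1 receptor gene Hrh1 had 4.71 and 7.66 in the same libraries.

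Growth and guidance genes were nearest to a few regions called in 3 or 4 libraries. Fgf12, an intracellular fibroblast growth factor that modulates sodium channels, held 2 intronic regions and was the only gene of 98 in the Wnt, FGF and TGF-beta list (1.02%, against 1.51% of all genes). The first (chr16:28254282-28254571) had fold enrichments of 5.49, 5.20, 7.51 and 8.23 in libraries 1 to 4. The second (chr16:28545366-28545708) had 5.75, 9.25 and 8.51 in libraries 1, 2 and 4. No arcuate-only or shared region had Fgf12 as its nearest gene. Of 72 axon guidance genes, Epha6, Efna5 and Unc5d were nearest genes (4.17%), while 8.33% were nearest to an arcuate-only and 9.72% to a shared region. The Epha6 intron region had peaks in all 4 libraries (6.54, 5.20, 6.57 and 9.65).

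The lists of genes by which the nuclei and estrogen action are usually known had 0 to 2 nearest genes each, and 1.51% of all genes were nearest. Of 22 arcuate peptide and feeding genes only Npy was (4.55%), 102 kb from a region with 4.05 and 6.24 in libraries 2 and 4. Of the same list, 18.2% were nearest to an arcuate-only and 13.6% to a shared region. Of 41 nuclear receptor genes only Pgr, the estrogen-induced progesterone receptor gene, was nearest, 108 kb from a region of 5.36 and 3.69 in libraries 2 and 3 that lies in an intron of Arhgap42. Of 30 classic estrogen target genes, Pgr and Myb were nearest genes (6.67%). Of 55 preoptic and telencephalic patterning genes only Moxd1, a marker of sexually dimorphic preoptic cells, was nearest, with 5.95 and 5.11 in libraries 3 and 4. The lists of receptor coregulators, clock genes, AP-1 and activity-induced factors, tuberal patterning factors and glial markers had 0. At the share over all genes, lists of 25 to 43 genes give counts of 0 or 1.

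In 6 promoters there were peaks in all 4 AVPV libraries. Mettl5, a methyltransferase of ribosomal RNA, had fold enrichments of 7.32, 6.36, 7.20 and 6.53 (chr2:69885523-69885969), all above the list medians. Samd12 had 6.99, 7.23, 6.26 and 6.24 (chr15:53902469-53902907), and Kctd9 had 7.84, 5.49, 10.6 and 5.39 (chr14:67715216-67715691). The others were at Lrrc61, Zfp260 and the start sites of Rnf121 and its neighbours on the opposite strand. Promoters with peaks in 3 libraries included those of Atf6, a factor of the unfolded protein response, and Scrib, a cell polarity protein, with highest fold enrichments of 6.36 and 6.37. Of the 68 promoter regions, 7 lay in promoters of both strands. Median GC content in the promoter regions was 60.7%, close to the 61.7% of shared promoter regions. The median percentile was 25.4 in AVPV-only and 62.7 in shared promoters.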

How the data were processed

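ERα ChIP-seq peak lists of 4 AVPV and 4 arcuate libraries were analysed, and the input samples were not used here. The authors aligned 75-nt single-end reads to mm10 with Bowtie2 2.5.0 and called peaks per library with MACS2 2.2.7.1, at a false discovery rate of 5% as the q-values in the lists show. Each deposited peak has a score (not used), the fold enrichment (a ratio to local background), and p-value and q-value, both as −log10. Because backgrounds differ between lists, fold enrichment was ranked within each list alone.

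Peaks were merged at 1 bp or more. Region midpoints were annotated with 45756 curated RefSeq transcripts of GRCm38.p6, whose chromosomes hold every peak, and sequence was read around the median summit of the libraries concerned. Values per library were compared by exact two-sided permutation tests, adjusted over 4. Read depth was not used here. The class rule and the element search were tested on simulated data. Members, gene lists, motifs and tests were chosen with earlier results of these data known. Named regions were the 12 with peaks in 4 AVPV libraries and the highest lowest percentile, the strongest by position, genes with 3 regions, up to 3 regions per gene list, elements without mismatch, and regions at the threshold. Of the 12, 3 are not reported here. Genes outside this rule, such as Slitrk6, and the promoters in 3 libraries and the half-sites AGGTCA and AGAACA were chosen after their values were seen. Python 3.11.15, numpy 2.4.6, scipy 1.17.1 and pysam 0.24.0 were used.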

Additional observations from a re-analysis of the deposited data

Results flagged for a closer look

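In a group of 4 libraries, a value was singled out when its gap to the nearest other library exceeded Dixon's 95% critical value as a share of the range. Chance marks about 1 in 20 groups, and 15 groups were examined. The median GC content of AVPV-only regions was 45.8% in AVPV library 3 against 43.8% in each of the other 3. The share of AVPV-only summits in repeat-masked sequence was 10.1% in AVPV library 4, against 7.46% to 7.86% in the others. In arcuate library 4, the share of arcuate-only regions with an ERE was 32.9%, against 41.8% to 43.4%, and the share of repeat-masked summits was 7.48%, against 8.75% to 8.98%.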

How the results depend on the processing

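The number of AVPV-only regions was 168 with peaks required in 3 of 4 libraries, 66 in all 4 and 1491 in at least 1, for both nuclei alike. Leaving out 1 library gave 249 (without AVPV library 4) to 576 (without arcuate library 1), and 278 without AVPV library 3. The other alternatives gave 291 to 533. The difference in promoter share between the nuclei ran from -5.46 without AVPV library 3, which turned its sign, to 10.7 points without arcuate library 4. The ERE difference ran from -13.1 (without arcuate library 4) to -1.79 (without AVPV library 3) and the GC difference from -8.62 to -4.62, with no change of sign. With all 4 libraries required, the promoter (2.11), ERE (-6.79) and GC (-6.78) differences had an adjusted exact permutation p of 0.0381 each; the libraries of a nucleus then hold identical regions, so these p-values say nothing about replicates. The repeat difference turned positive with lists of equal length (0.842) and when 1 library was left out (-1.99 to 0.648).

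Within AVPV libraries, the promoter difference from shared regions was -31.0 in 3 of 4, -34.0 in all 4, -16.3 in at least 1, -20.4 at fold enrichment above 5, -27.0 at −log10 q of at least 5, -17.4 with equal lists, -31.6 with a promoter of 2 kb each side, and -28.3 to -19.8 with 1 library left out. The ERE difference of -1.07 points had no stable sign. It was 0.160 in 3 of 4, 9.22 in all 4, -6.57 in at least 1, 1.44 at fold enrichment above 5, 3.54 at −log10 q of at least 5, -5.49 at 1 mismatch, -4.34 within 50 bp, -14.3 outside promoters and -3.77 to 0.805 with 1 library left out. The causes were not tested.

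Correlations of the deviations of same-numbered libraries were -0.0832 to 0.0503, within the -0.0975 to 0.0844 of the other pairs. The calls thus showed no pairing by number, and they cannot tell whether such libraries shared animals or pools. With a replicate block the differences were as above (promoter 3.24, ERE -7.47, GC -6.59, repeats -0.292), with adjusted exact sign-flip p of 0.667, 0.500, 0.500 and 0.875; 4 pairs cannot go below 0.125. GC content outside promoters was added after the data were seen (-7.09, adjusted exact permutation p = 0.114). Peak lists without depth limit every statement to calls.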
